A study of Danio rerio with 21 samples.

Results

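The Hox genes encode homeodomain transcription factors. All genes whose symbol has the form of a Hox gene name (hox, a cluster letter from a to d, a paralog number and a copy letter) were taken from 3 tables of genes that the authors called different between sorted zebrafish cells, and 30 of the 3064 genes listed in any table were Hox genes. The tables covered 29 of them for haemogenic endothelium (HE) against aortic roof endothelium (ARE), 7 for runx1 morphants against controls in the HE gate, and 0 for morphants against controls in non-endothelial cells. A RefSeq annotation of the GRCz12tu assembly held 49 Hox genes, so 19 had no value here. A gene without a value may have been tested and not called or left off the tables, and it is not treated as unchanged.

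All embryos carried TgBAC(runx1P2:Citrine), a reporter driven by the runx1 P2 promoter on a bacterial artificial chromosome, and Tg(kdrl:mCherry), which marks endothelium, and cells were sorted from whole embryos at 28 to 30 hours post fertilisation (hpf). Non-injected (Wt) double-positive cells with high Citrine formed the HE group (Wt-DP-R1hi), those with low Citrine the ARE group (Wt-DP-R1lo), and cells without either reporter the double-negative group (Wt-DN). The morphant groups MO-DP-R1hi and MO-DN came from embryos of the same transgenic background injected with a splice-blocking runx1 morpholino (MO), an antisense oligonucleotide that lowers but need not abolish the gene's function. Each group had 3 libraries, each from a pool of embryos of several clutches and at least 3000 sorted cells. Samples of the kdrl single-positive and DP-R1med gates were not analysed here.

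Hox genes lie in clusters in which the order along the chromosome follows the order of expression along the body axis, with low paralog numbers anterior (hindbrain and pharyngeal arches) and high numbers posterior (trunk end, tail and fins). Zebrafish carry 7 such clusters (aa, ab, ba, bb, ca, cb and da), left by a genome duplication in the teleost lineage. The proteins bind DNA with TALE homeodomain cofactors (Pbx and Meis proteins), and retinoic acid, Cdx factors, Trithorax and Polycomb complexes set where the genes are on. In blood, mammalian HOXA9 acts in haematopoietic stem and progenitor cells, and in zebrafish hoxb7a and hoxa9a act downstream of cdx4 in early blood formation.

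Values are in CPM, the usual depth-scaled unit of RNA-seq, in which the reads of a gene are divided by each library's effective size. CPM is not corrected for gene length, so levels are compared between groups for the same gene and not between genes. The effective sizes ranged from 13.8 to 19.3 M reads in the HE and ARE table, from 9.72 to 17.6 M in the DP-R1hi morphant table and from 12.7 to 22.6 M in the DN table. Between HE and ARE, 7 of 7 HE markers (gfi1aa, gfi1ab, myb, gata2b, tal1, lmo2 and dnmt3bb.1) were higher in HE, and 12 of 16 endothelial markers were listed, all lower in HE. Differences are HE minus ARE, or MO minus Wt, of mean log2(CPM + 1) with the standard error (SE), which understates the change of genes with few reads. They were tested with limma, and a gene was called at an adjusted p under 0.05. As every gene here had already been called by the authors on the same libraries, a limma call is a check of that selection and not independent evidence.

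**Figure D1:**
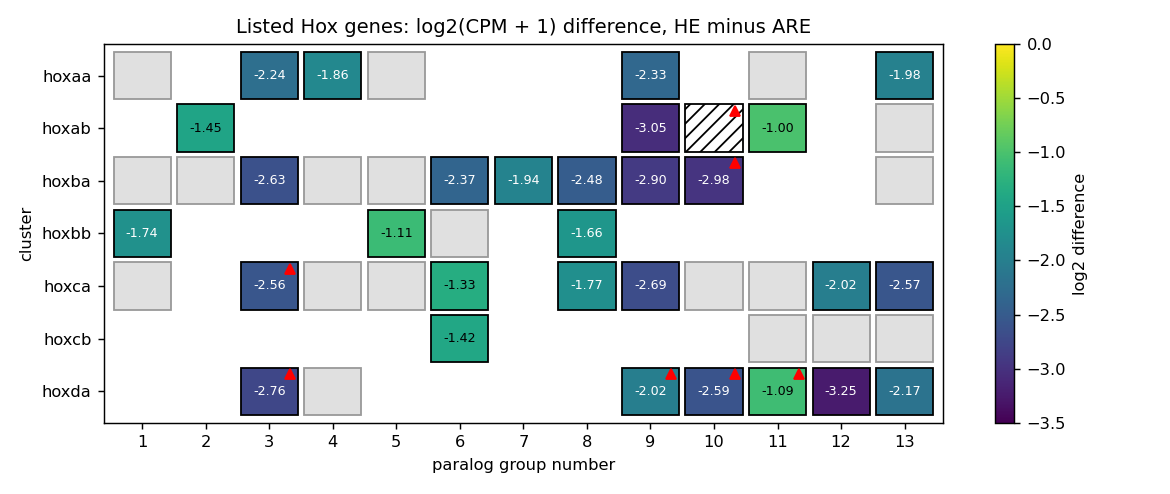
Map of the 49 annotated Hox genes, with the clusters in rows and the paralog group number on the x axis, where filled cells give the log2(CPM + 1) difference, HE minus ARE, of the 29 genes listed there, red triangles mark the 7 genes of the DP-R1hi morphant table (hatched where listed only there), and grey cells are annotated genes without a value. Differences are negative in all 7 clusters.

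Every listed Hox gene was lower in HE than in ARE. Of the 29 genes, 29 had a negative difference, 28 passed the limma test, and in 29 the 3 HE libraries all lay below the 3 ARE libraries. The median log2 difference was -2.17 and the range was from -3.25 to -1.0, with 17 genes at 2 log2 units or more. By the same limma rule, which could be applied to listed genes alone, 14.1 percent of all genes tested, and 56.5 percent of the 2732 genes listed, were called lower in HE. Groups lay apart in that direction for 58.4 percent of listed genes. Of the 1633 listed genes that were lower in HE, 1544 were called and 1596 lay apart. The calls and the separation of the Hox genes are therefore shared by most listed genes lower in HE. Over all 1633 listed genes that were lower in HE the median difference was -1.70. Libraries were also rescaled by median ratios over the listed genes, which raised the differences of these genes by a median of 0.81 log2 units. Rescaling takes the listed genes to have no median change, though all were called by the authors and most were lower in HE. It can therefore remove or add part of a real difference. After rescaling all 29 Hox genes kept their sign, the median was -1.53 and 23 passed the test. Over all listed genes, in both directions, 2581 were called before rescaling and 1918 after it. In a bulk sample, fewer cells that express a gene and less RNA per cell cannot be told apart.

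The HE means ran from 0.495 CPM (hoxc12a) to 15.5 CPM (hoxa11b) with a median of 2.26 CPM, and 21 of the 29 genes were under 5 CPM. The ARE means ran from 4.01 CPM (hoxc6a) to 50.1 CPM (hoxb8a) with a median of 12.8 CPM, and 19 were over 10 CPM. Summed over the 29 genes, ARE libraries 1, 2 and 3 held 501, 397 and 731 CPM and HE libraries held 92.6, 85.1 and 119 CPM. The mean sums of 543 ± 171 CPM (SD, n = 3) in ARE and 99.0 ± 18 CPM (SD, n = 3) in HE differed 5.48-fold.

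**Figure D2:**
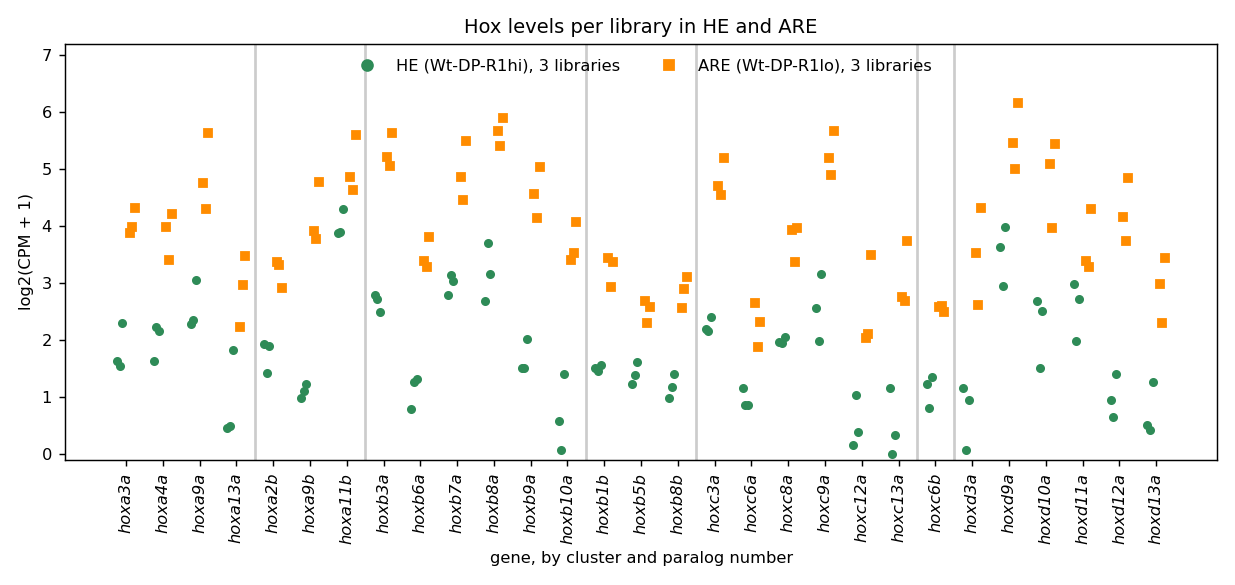
Level of each listed Hox gene as log2(CPM + 1) in the 3 HE libraries (circles) and the 3 ARE libraries (squares), by cluster and paralog number, 1 point per library. The HE points lie below the ARE points for all 29 genes.

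The anterior paralog groups 1 to 3 had 6 of 10 annotated genes listed, with a median difference of -2.40. The 4 genes of paralog group 3, whose relatives pattern the hindbrain and pharyngeal arches, were all listed and had a median of -2.60. For hoxb3a, ARE libraries 1 to 3 held 36.1, 32.4 and 48.7 CPM and HE libraries 5.93, 5.65 and 4.66 CPM. Its means were 39.1 ± 8.53 CPM in ARE and 5.42 ± 0.668 CPM in HE (SD, n = 3), and the difference of -2.63 (SE 0.24) had a limma adjusted p of 2.71e-05, the lowest of the 29. For hoxc3a, the ARE values were 25.2, 22.5 and 35.7 CPM and the HE values 3.58, 3.50 and 4.30 CPM, a difference of -2.56 (SE 0.27, adjusted p = 5.15e-05). In both genes the lowest ARE library was several times the highest HE library.

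hoxd3a held 10.5, 5.12 and 19.1 CPM in ARE and 1.24, 0.0583 and 0.932 CPM in HE. The HE values rest on 20, 1 and 18 reads, and the difference was -2.76 (SE 0.47, adjusted p = 0.00125). hoxa3a had means of 15.9 ± 2.84 CPM in ARE and 2.65 ± 1.11 CPM in HE (SD, n = 3), a difference of -2.24 (SE 0.31, adjusted p = 0.00033). In the GRCz12tu annotation each of these 4 genes overlaps other Hox genes (hoxa3a with hoxa4a and hoxa5a, hoxb3a with hoxb4a, hoxb5a and hoxb6a, hoxc3a with 5 genes from hoxc4a to hoxc9a, hoxd3a with hoxd4a). How the authors' annotation divided reads there was not tested, so the values of the overlapping genes, group 3 above all, are uncertain.

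Outside group 3, hoxb1b, which acts in hindbrain segmentation, was the gene of the bb cluster with the largest difference in log2(CPM + 1). Its ARE values were 9.89, 6.68 and 9.38 CPM and its HE values 1.85, 1.75 and 1.97 CPM, a difference of -1.74 (SE 0.29, adjusted p = 0.00122). It overlaps hoxb5b and hoxb6b in the annotation. hoxa2b, which gives the second pharyngeal arch its identity, had means of 8.34 ± 1.51 and 2.43 ± 0.639 CPM (SD, n = 3) in ARE and HE. Its difference of -1.45 (SE 0.30, adjusted p = 0.00466) was -0.77 after rescaling, with an adjusted p of 0.20.

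The central paralog groups 4 to 8 had 9 of 16 genes listed and a median of -1.77. hoxb8a held 50.1, 41.4 and 58.9 CPM in ARE and 5.44, 12 and 7.98 CPM in HE. Its difference of -2.48 (SE 0.28, adjusted p = 9.23e-05) was the largest of these 9 in log2(CPM + 1). hoxb7a, the only annotated gene of its group, had means of 31.1 ± 11.7 CPM in ARE and 7.02 ± 0.990 CPM in HE (SD, n = 3), a difference of -1.94 (SE 0.29, adjusted p = 0.000557). hoxb6a fell from a mean of 10.5 CPM in ARE to 1.21 CPM in HE (-2.37, SE 0.31, adjusted p = 0.00026). The 3 genes above belong to the ba cluster, whose 6 listed genes ranged from -2.98 to -1.94.

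hoxa4a, hoxc8a and hoxb8b had differences of -1.86 (SE 0.32), -1.77 (SE 0.29) and -1.66 (SE 0.31), with means of 14, 12.8 and 6.34 CPM in ARE and 3.10, 2.97 and 1.31 CPM in HE. All 3 passed the test, with adjusted p-values of 0.00134, 0.000913 and 0.00244.

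The smallest differences of the central groups were in hoxb5b, which acts in the lateral plate mesoderm of zebrafish, and in hoxc6a and hoxc6b. hoxb5b held 5.45, 3.91 and 5.00 CPM in ARE and 1.36, 1.63 and 2.07 CPM in HE, a difference of -1.11 (SE 0.31, adjusted p = 0.022). hoxc6a held 5.31, 2.71 and 4.01 CPM in ARE and 1.24, 0.816 and 0.829 CPM in HE, a difference of -1.33 (SE 0.34, adjusted p = 0.0137). hoxc6b, the only listed gene of the cb cluster, held 5.02, 5.06 and 4.63 CPM in ARE and 1.36, 0.758 and 1.55 CPM in HE, a difference of -1.42 (SE 0.31, adjusted p = 0.00597). The groups were apart in all 3 genes, but after rescaling their differences were -0.48, -0.78 and -0.84 and none passed the test (adjusted p = 0.834, 0.28 and 0.176). The call of hoxb5b was also lost without ARE library 1 (adjusted p = 0.095), ARE library 3 (0.0735), HE library 1 (0.0687) or HE library 2 (0.061), and that of hoxc6a without ARE library 1 (0.0734).

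The posterior paralog groups 9 to 13 had 14 of 23 genes listed for HE against ARE and a median of -2.45. All 5 genes of group 9 were listed, with a median of -2.69. hoxa9b held 14.1, 12.8 and 26.4 CPM in ARE and 0.989, 1.17 and 1.35 CPM in HE, a difference of -3.05 (SE 0.33, adjusted p = 7.36e-05). hoxb9a held 22.6, 16.8 and 31.8 CPM in ARE and 1.85, 1.87 and 3.06 CPM in HE, a difference of -2.90 (SE 0.31, adjusted p = 6.72e-05). hoxc9a held 35.8, 29.0 and 50.1 CPM in ARE and 4.94, 2.97 and 7.92 CPM in HE, a difference of -2.69 (SE 0.33, adjusted p = 0.00016). In each of these 3 genes every HE library was well below every ARE library.

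The HOXA9 relative hoxa9a, the gene of the aa cluster with the largest difference, held 26.0, 18.8 and 48.7 CPM in ARE and 3.89, 4.14 and 7.30 CPM in HE. Its difference was -2.33 (SE 0.36, adjusted p = 0.000721). hoxd9a, a gene of the posterior HoxD set that is also used in fin buds, held 43.3, 31.0 and 71.0 CPM in ARE and 11.4, 6.70 and 14.9 CPM in HE, a difference of -2.02 (SE 0.34, adjusted p = 0.00122). Library 3 was the highest of both groups for both genes.

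Of all 29 genes hoxd12a had the largest difference in log2(CPM + 1). It held 17, 12.4 and 27.8 CPM in ARE and 0.927, 0.583 and 1.66 CPM in HE, and the difference was -3.25 (SE 0.36, adjusted p = 8.12e-05). hoxb10a held 9.67, 10.5 and 15.9 CPM in ARE and 0.494, 0.0583 and 1.66 CPM in HE, a difference of -2.98 (SE 0.39, adjusted p = 0.000251), and its HE values rest on 8, 1 and 32 reads. hoxd10a held 33, 14.7 and 42.3 CPM in ARE and 5.44, 1.87 and 4.71 CPM in HE, a difference of -2.59 (SE 0.42, adjusted p = 0.001). For hoxb10a the HE libraries spanned a wide relative range, yet the highest of them was below all ARE libraries.

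The listed genes of group 13, the most posterior paralog group (3 of 6 listed), and hoxc12a had few reads in HE. In zebrafish hoxa13a and hoxd13a act in the distal fin. hoxa13a had means of 6.94 ± 3.27 CPM in ARE and 1.11 ± 1.24 CPM in HE (SD, n = 3), and hoxd13a 6.90 ± 2.98 and 0.727 ± 0.583 CPM, with differences of -1.98 (SE 0.46, adjusted p = 0.00868) and -2.17 (SE 0.40, adjusted p = 0.00199). hoxc13a had 5.74, 5.48 and 12.4 CPM in ARE and 1.24, 0 and 0.259 CPM in HE. The value of 0 in HE library 2 allows up to 3 reads, or 0.175 CPM, and the difference was -2.57 (SE 0.42, adjusted p = 0.00104). hoxc12a had 3.13, 3.31 and 10.3 CPM in ARE and 0.124, 1.05 and 0.311 CPM in HE, from 2, 18 and 6 reads (-2.02, SE 0.45, adjusted p = 0.00684).

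Group 11, whose mouse relatives pattern the forearm and kidney, had the 2 smallest differences. hoxa11b held 28.1, 23.8 and 47.4 CPM in ARE and 13.8, 14 and 18.7 CPM in HE. Its difference of -1.0 (SE 0.27, adjusted p = 0.0208) was -0.18 after rescaling (adjusted p = 1) and lost its call without ARE library 3 (adjusted p = 0.0717), HE library 1 (0.0945) or HE library 2 (0.0824). hoxd11a held 9.45, 8.79 and 18.8 CPM in ARE and 6.98, 2.97 and 5.59 CPM in HE, and at -1.09 (SE 0.37, adjusted p = 0.0588) it was the single gene of the 29 that did not pass the test. Its lowest ARE value still lay above its highest HE value. With same-numbered libraries treated as pairs in a block, hoxd11a passed (limma adjusted p = 0.0232).

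**Figure D3:**
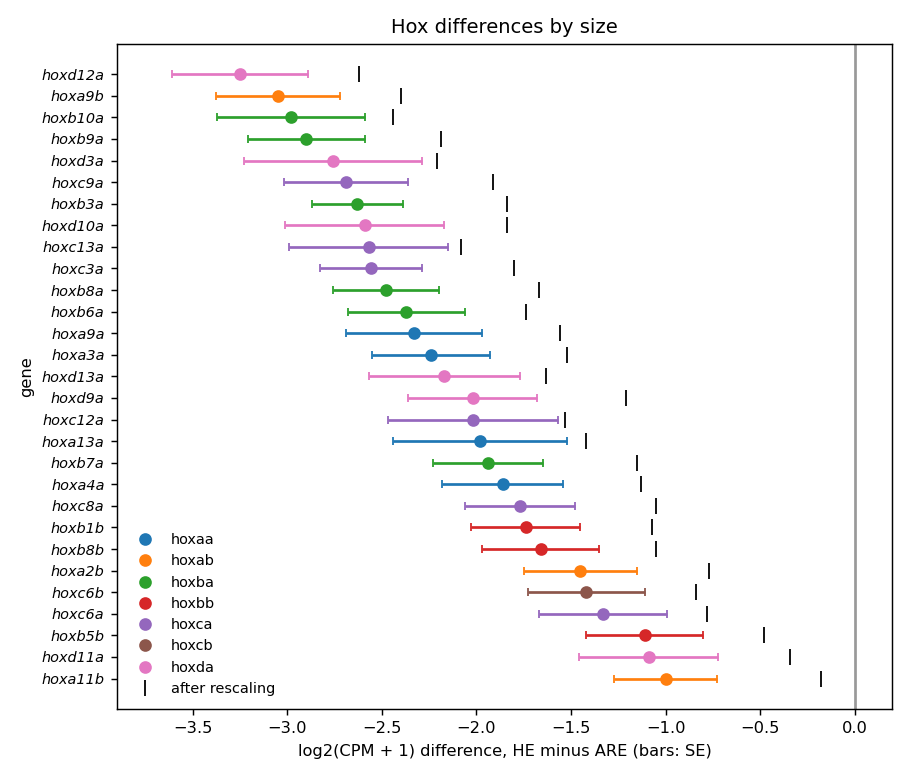
Difference of each listed Hox gene, HE minus ARE, in mean log2(CPM + 1), coloured by cluster, with bars of 1 SE from limma and a tick for the value after rescaling. The points run from -3.25 (hoxd12a) to -1.0 (hoxa11b), and all ticks stay below 0.

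By cluster, the median difference was -2.55 over 6 genes of ba, -2.38 over 6 of da, -2.29 over 6 of ca, -2.11 over 4 of aa, -1.66 over 3 of bb and -1.45 over 3 of ab, and the cb cluster had the lone value of -1.42. The spread within clusters was wide against these medians: da ran from -3.25 to -1.09 and ab from -3.05 to -1.0. Summed CPM over the listed genes of a cluster was from 3.10-fold (ab) to 6.88-fold (ca) higher in ARE than in HE. Clusters and paralog groups were not tested against each other. The gene pairs that the genome duplication left as a and b copies were both listed for hoxb8 (-2.48 for hoxb8a and -1.66 for hoxb8b), hoxa9 (-2.33 for hoxa9a and -3.05 for hoxa9b) and hoxc6 (-1.33 for hoxc6a and -1.42 for hoxc6b). As all 29 listed Hox genes were lower in HE, a shared sign within the 3 pairs tells nothing about the copies.

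The ARE libraries were not alike in Hox content. Library 3 held the highest ARE value for 24 of the 29 genes (82.8 percent), against 61.7 percent of the 1633 listed genes lower in HE. Its ratio to the mean of libraries 1 and 2 had a median of 1.58 over the Hox genes and 1.26 over those 1633 genes. For the 14 posterior genes the ratio ran from 1.55 to 3.2 (median 1.90), and all 14 were highest in library 3. For the 6 anterior and the 9 central genes the medians were 1.38 and 1.29. The same ratio had a median of 1.82 over the 12 listed endothelial markers, 1.23 over neural markers, 1.13 over epidermal markers and 0.98 over neural crest and mesenchyme markers. It was 1.49 over HE markers, 0.795 over macrophage and granulocyte markers and 0.739 over primitive erythroid markers. The part of these in the Hox values was not tested. Without ARE library 3, 26 of the 29 Hox genes were called. Among the HE libraries, library 3 was also the highest for 18 of the 29 genes (62.1 percent), against 45.2 percent of the 1633 listed genes lower in HE. For the 14 posterior genes it was the highest HE library for 10.

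**Figure D4:**
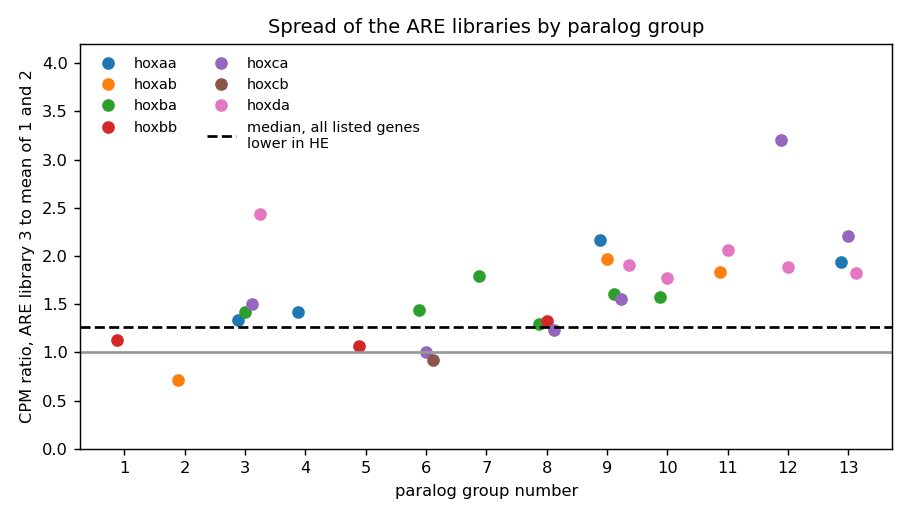
CPM in ARE library 3 over the mean of ARE libraries 1 and 2 for each listed Hox gene, by paralog group number and coloured by cluster, with a dashed line at the median of 1.26 over all listed genes lower in HE. The 14 genes of groups 9 to 13 have ratios from 1.55 to 3.2, and the 15 genes of groups 1 to 8 run from 0.717 to 2.44.

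Library 2 was the lowest of its group in both gates for 12 of the 29 Hox genes (41.4 percent), against 23.7 percent of the listed genes lower in HE. These were all 6 genes of the da cluster, 5 of 6 of ca and 1 of 3 of bb. The 13 genes of aa, ab and ba had 0, as did the 1 gene of cb. This pattern was picked after the values were seen and was not tested.

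Genes that work with Hox proteins or set their expression were taken from 4 lists. Of 15 TALE cofactor genes 6 were listed for HE against ARE, and all 6 were lower in HE and passed the test. By comparison, 1544 of all 1633 listed genes lower in HE were called. The cofactor genes were as follows. They were meis2a (-2.90, SE 0.29), meis2b (-1.91, SE 0.29), meis3 (-1.51, SE 0.24), pbx1a (-1.4, SE 0.31), pbx3b (-1.20, SE 0.32) and pbx4 (-0.85, SE 0.19). After rescaling meis2a and meis2b passed and pbx4 was at -0.01. meis2a, a partner that stabilises Hox complexes on DNA, had means of 17.7 ± 4.12 CPM in ARE and 1.46 ± 0.0548 CPM in HE (SD, n = 3).

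Of 24 genes of retinoic acid signalling and the Cdx family 7 were listed, all lower in HE and all called, as were 1544 of all 1633 listed genes lower in HE. The receptors were rarga (-3.77, SE 0.33), rxraa (-3.36, SE 0.35), rxrga (-1.67, SE 0.29) and raraa (-1.57, SE 0.22). The enzymes cyp26c1 (-3.31, SE 0.38) and cyp26b1 (-1.78, SE 0.31), which break down retinoic acid, and crabp2a (-2.32, SE 0.38), which binds it in the cell, were the others. All but rxrga passed after rescaling. No cdx gene was listed.

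Of 38 Trithorax and Polycomb genes 8 were listed and called, 7 of them higher in HE, and 38 percent of all listed genes were called higher in HE. Of the 1099 listed genes higher in HE, 1037 were called. The 7 that were higher in HE included kdm6bb (1.46, SE 0.18), which removes the Polycomb mark, and the Polycomb genes ezh2 (0.86, SE 0.14), suz12a (1.16, SE 0.19), bmi1a (1.1, SE 0.25) and pcgf6 (1.28, SE 0.35). The Trithorax complex genes men1 (1.24, SE 0.21) and wdr5 (0.72, SE 0.13) completed them, and cbx6a (-1.68, SE 0.32) was lower. After rescaling the 7 passed and cbx6a did not (-0.91, adjusted p = 0.0628). Of 16 cell cycle markers 7 were listed, and the 6 that were higher in HE (mki67, mcm3, mcm5, mcm6, orc1 and tk1) all passed. The other, mcm7, was lower in HE and did not pass (-0.85, SE 0.31, adjusted p = 0.076). The part of the cell cycle markers in these values was not tested. Of 22 other homeobox genes, meox1, a somite gene, was lower in HE (-4.09, SE 0.33) and passed, and dlx5a (-1.95, SE 0.65, adjusted p = 0.0522) did not.

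Several tissues with known Hox expression also had more marker RNA in ARE. Of 27 neural markers 14 were listed, all lower in HE, with sums of 474 to 638 CPM in ARE and 117 to 168 CPM in HE. Neural crest, sclerotome and mesenchyme markers (7 of 27 listed, all lower) summed to 954 to 1190 CPM in ARE and 13.6 to 24.6 CPM in HE. Epidermal markers (14 of 28, all lower) summed to 1630 to 4130 CPM in ARE and 149 to 288 CPM in HE, and endothelial markers (12 of 16, all lower) to 1290 to 2500 and 82.9 to 236 CPM. Tailbud, somite and muscle markers had 2 of 21 listed (4.58 to 25.2 CPM in ARE, 1.42 to 1.76 CPM in HE) and fin bud and lateral plate markers 0 of 18. After rescaling, all but 1 of the listed genes of these lists, a neural marker, kept the lower level in HE. No listed marker of these lists was at 0 in every HE library, and their part in the Hox differences was not tested. Of 16 pronephros, gut and liver markers 2 were listed and called, ctsla lower in HE (-4.84, SE 0.31) and sox17 higher (2.02, SE 0.35). Blood markers differed between the gates as well. Macrophage and granulocyte markers (7 of 13 listed, all lower in HE and called) summed to 1200 to 1740 CPM in ARE and 263 to 285 CPM in HE, although after rescaling 5 passed and cxcr3.2 was at 0.28. The neutrophil gene mpx and coro1a were not listed for HE against ARE, so these sums leave them out. In the morphant table the same Wt-DP-R1hi libraries held 4380, 5070 and 3470 CPM of mpx. Primitive erythroid markers (4 of 15, all higher in HE and called) summed to 477 to 675 CPM in ARE and 2210 to 2550 CPM in HE. Their HE means were 1210 CPM for blf, 904 for znfl2a, 263 for gata1a and 31.2 for epor, so blf and znfl2a made up most of the sum. No globin gene was listed for HE against ARE, so the erythroid sums leave globin RNA out. Among all listed genes, 1544 of the 1633 lower in HE and 1037 of the 1099 higher in HE were called. The part of these blood markers was not tested either.

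In the morphant comparison of the HE gate all 7 listed Hox genes had higher means in MO-DP-R1hi than in Wt-DP-R1hi, and none passed the limma test. The differences ran from 1.0 to 1.70 log2 units with a median of 1.17, and adjusted p ran from 0.0799 to 0.611. All 7 had an unadjusted limma p under 0.05, as did 661 of the 676 listed genes, which the authors had already called. In this comparison, 1.55 percent of genes tested and 26.3 percent of genes listed were called higher in MO, and the groups lay apart in that direction for 57.1 percent of listed genes, against 6 of the 7 Hox genes. When same-numbered libraries were treated as pairs in a block, 1 of the 7 passed, against 35.8 percent of listed genes. Rescaling, which changed the differences of the listed genes by a median of -0.76 log2 units, left all 7 above 0 with a median of 0.43 and none called. Over all 421 listed genes higher in MO the median was 1.3, 178 were called and 386 lay apart.

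The gene that passed with the block was hoxd3a, of the anterior group 3. It held 1.33, 0.0628 and 1.02 CPM in Wt libraries 1 to 3 and 4.61, 2.94 and 6.69 CPM in MO libraries, a difference of 1.70 (SE 0.43). Its adjusted p was 0.0799 without the block and 0.0208 with it. The other anterior gene, hoxc3a, held 3.86, 3.77 and 4.71 CPM in Wt and 11, 6.22 and 11.2 CPM in MO, a difference of 1.0 (SE 0.34, adjusted p = 0.29). In both genes every MO library lay above every Wt library, and both overlap other Hox genes in the annotation.

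The posterior genes of the da cluster had 3 members in the table. hoxd9a held 12.3, 7.22 and 16.4 CPM in Wt and 29.5, 22.8 and 28.9 CPM in MO (1.17, SE 0.33, adjusted p = 0.128). hoxd10a held 5.86, 2.01 and 5.17 CPM in Wt and 14.4, 6.83 and 13.9 CPM in MO (1.27, SE 0.43, adjusted p = 0.269). hoxd11a held 7.53, 3.2 and 6.13 CPM in Wt and 16.1, 11.6 and 11.5 CPM in MO (1.13, SE 0.36, adjusted p = 0.214). Library 2 was the lowest Wt library for all 3, and the groups did not overlap.

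hoxa10b, of the ab cluster, was listed only in this table, although its neighbours hoxa9b and hoxa11b were listed for HE against ARE. It held 14.5, 6.53 and 12.3 CPM in Wt and 24.4, 23.3 and 22.8 CPM in MO, a difference of 1.08 (SE 0.33, adjusted p = 0.169). hoxb10a held 0.533, 0.0628 and 1.82 CPM in Wt and 5.02, 3.08 and 1.23 CPM in MO, a difference of 1.19 (SE 0.49, adjusted p = 0.611). It was the single gene of the 7 whose groups overlapped, since MO library 3 was below Wt library 3. By paralog group, 3 of the 7 genes were of group 10, 2 of group 3 and 1 each of groups 9 and 11, and by cluster 4 were of da.

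**Figure D5:**
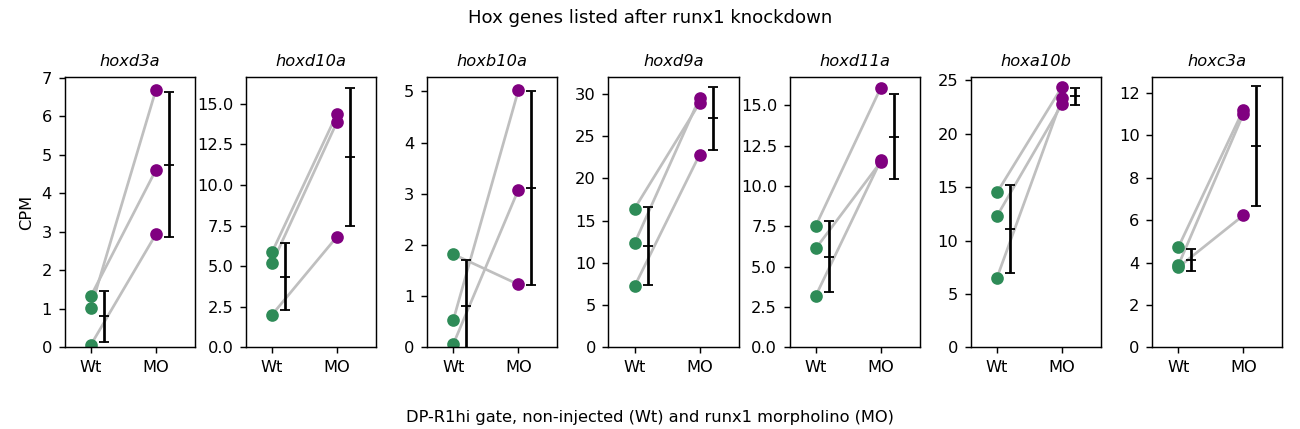
CPM of the 7 Hox genes listed in the DP-R1hi morphant table in the 3 Wt and 3 MO libraries, each gene on its own axis, with grey lines joining same-numbered libraries and the mean ± SD beside each group (the lower bar of hoxb10a in Wt ends at the axis). MO means are higher for all 7, from 2.11-fold (hoxa10b) to 5.89-fold (hoxd3a), and the points of hoxb10a overlap.

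For 6 genes both tables held values. The ARE and the MO means exceeded the Wt-DP-R1hi mean 15.6-fold and 5.89-fold for hoxd3a, 16.3-fold and 3.87-fold for hoxb10a, 7.48-fold and 2.69-fold for hoxd10a, 7.34-fold and 2.31-fold for hoxc3a, 4.4-fold and 2.26-fold for hoxd9a, and 2.39-fold and 2.33-fold for hoxd11a. The same 3 Wt-DP-R1hi libraries are the lower group of both comparisons, so the values are set side by side and no relation between them was tested. The tables were scaled separately.

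Summed over the 7 genes, Wt libraries held 46.0, 22.8 and 47.5 CPM and MO libraries 105, 76.8 and 96.3 CPM. Of 7 HE markers 3 were listed and called. In MO gfi1ab (-2.88, SE 0.28) and dnmt3bb.1 (-1.8, SE 0.19) were lower and tal1 (0.93, SE 0.19) was higher. Of 16 endothelial markers 2 were listed, fli1a lower and called (-0.73, SE 0.16) and erg higher and not called (1.41, SE 0.43). Cell cycle markers (3 of 16 listed) were all lower, 1 of them called. Markers of several other tissues were higher in MO. Epidermal markers (9 of 28 listed, all higher, 1 called) summed to 149 to 300 CPM in Wt and to 3620, 1380 and 631 CPM in MO libraries 1 to 3, and neural crest and mesenchyme markers (5 of 27, all higher, 2 called) to 12.1 to 22.7 and 67.8 to 99.1 CPM. Of 16 pronephros, gut and liver markers 2 were listed, ctsla (2.09, SE 0.32) and sox17 (1.9, SE 0.31), both higher in MO and called. Erythroid markers (6 of 15) were higher and all called, 3 of them after rescaling, and no neural marker was listed. These erythroid markers, mostly globin genes, summed to 35300 to 46100 CPM in Wt and 101000 to 163000 CPM in MO. Of 13 macrophage and granulocyte markers 8 were listed, and 6 were higher in MO and called, among them ccl34a.4 (12.1 ± 3.43 CPM in Wt and 203 ± 61.2 CPM in MO), mfap4 (43.9 ± 17 and 445 ± 25.4 CPM) and mpeg1.1 (19.2 ± 4.56 and 122 ± 41.0 CPM; SD, n = 3). The neutrophil gene mpx was lower in MO and called (4310 ± 806 and 1650 ± 560 CPM, SD, n = 3), and coro1a was at -0.84 (adjusted p = 0.0597). Among all 676 listed genes, 26.3 percent were called higher and 15.1 percent lower in MO. The part of these in the Hox values was not tested.

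Among the partner and regulator genes the morphant table listed pbx2, a Hox cofactor, which was lower in MO and passed the test (-1.32, SE 0.26, adjusted p = 0.0289). pbx2 held 53.0, 63.5 and 47.2 CPM in Wt and 15.5, 25.8 and 23.3 CPM in MO. It was also listed as lower in MO in the double-negative cells. The paper treated genes that changed in the same direction in both gates as morpholino off-targets and removed them. The histone demethylase gene kdm6bb was also lower and called (-0.96, SE 0.21, adjusted p = 0.0489), and 15.1 percent of all listed genes were called lower in MO. ezh2 (-0.67, SE 0.18), phc2b (-1.15, SE 0.33), rxrga (1.4, SE 0.41), rarga (1.05, SE 0.40), cyp26b1 (0.84, SE 0.36) and meox1 (1.33, SE 0.38) were listed and not called. After rescaling ezh2 (-1.47, adjusted p = 0.0044) and phc2b (-1.86, adjusted p = 0.00916) passed as well as pbx2 and kdm6bb, and the other 4 did not.

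In the double-negative cells, which carry neither reporter, none of the 176 listed genes was a Hox gene. No Hox gene therefore had a value there, and the effect of the morpholino on Hox genes could not be compared between the gates. The table listed pbx2 at -1.38 (SE 0.29, adjusted p = 0.116), with means of 99.0 ± 11.5 CPM in Wt-DN and 39.3 ± 14.5 CPM in MO-DN (SD, n = 3). After rescaling pbx2 passed there, at -2.27 (adjusted p = 0.0334).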

How the data were processed

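RNA was sequenced from SMARTer low-input libraries (2.2 ng of RNA each), and whether the preparation kept strand is not given in the sources used here. Reads were trimmed (Trimmomatic 0.32), aligned by STAR to a build the methods name Zv10, assigned to genes by featureCounts and tested in edgeR, all by the authors. The deposited CPM values are the authors' normalised read counts. The header does not name the unit, and the values are whole multiples of 1 step per library, taken as 1 read. The deposited p-value columns (p and false discovery rate, FDR) served only to recover the number of genes the authors tested (10916 for HE against ARE, 11479 for both morphant tables), and their fold changes and test statistics were not used. Each table lists only genes the authors called (2732, 676 and 176), and 677, 242 and 41 genes under the same FDR limit were left off.

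Here log2(CPM + 1) was compared with limma 3.58.1 in R 4.3.3 (trended moderation, no filter on low values), on the 6 libraries of each table, with Benjamini-Hochberg adjustment over the number of genes tested. The steps were tested on simulated data. A count test was not run, so all calls rest on limma on log2(CPM + 1). Read counts quoted beside CPM are CPM over the step, and limits from 0 reads cover counting error only. The alternatives were other pseudocounts (0.1 and 0.5 CPM), a minimum mean of 1 CPM, rescaled libraries, a replicate block, adjustment over listed genes only, and leaving out each library. Rescaling rests on genes already called different, so calls lost or gained under it do not correct the main values.

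Per the methods the 3 libraries of a group come from 3 independent experiments, each on pooled clutches that were split between injected and non-injected embryos, but no source used here says that a replicate number marks the same experiment in every group. Deviations from group means correlated between same-numbered libraries at 0.128, 0.313 and 0.118 in the DP-R1hi morphant table. The highest values between different numbers were 0.02, -0.006 and 0.118. For HE against ARE same numbers gave 0.094, 0.183 and 0.267, and different numbers at most -0.024, 0.058 and -0.146. For DN the values were 0.223, 0.181 and -0.056, against -0.111, 0.235 and 0.092. Same numbers thus stood out at least as much for HE against ARE as in the DP-R1hi morphant table. Blocked values are given for both where they change a Hox call, and the fit without the block stayed the main one.

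The Hox genes, gene lists and markers were chosen with earlier results of these data known. Values per library are given for all Hox genes of a morphant table, the 6 largest and the 4 smallest differences, the 4 with the most CPM in ARE and the largest difference of each cluster. hoxc12a and hoxc13a were added for their low reads after their values were seen. The RefSeq table (GRCz12tu, another build than the authors') gave names, order and overlaps only.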

Additional observations from a re-analysis of the deposited data

How the results depend on the processing

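All Hox differences kept their sign under every alternative run, but their order depended on the pseudocount. At 0.1 CPM hoxb10a (-4.43), hoxc13a (-4.35) and hoxd3a (-4.09) exceeded hoxd12a (-4.08). At that setting hoxb6a (-3.04) exceeded hoxb8a (-2.61), hoxa13a (-2.92) exceeded hoxa9a (-2.53) and hoxb8b (-2.2) exceeded hoxb1b (-2.14). Of the values of single Hox genes under an alternative, 409 stayed on the same side of the threshold, 13 lost a call and 10 gained it. HE against ARE called 28 Hox genes, 29 with the replicate block, 23 with rescaled libraries and 26 to 28 with each library left out in turn. Over all genes the same settings called 2581, 2686, 1918 and 2184 to 2371. With the block hoxd11a was called as well. The morphant comparison in DP-R1hi called 0 Hox genes, 1 with the block and 7 when adjusted over listed genes only, and 0 with any library left out. Over all genes that comparison called 280, 661 when adjusted over listed genes only, and 94 to 230 with a library left out (101, 94 and 176 without Wt-DP-R1hi libraries 1, 2 and 3). The DN comparison called 40 genes, 101 with the block, 176 when adjusted over listed genes only, and 8 to 33 with a library left out (8 without Wt-DN library 1 and 25 without Wt-DN library 3). The block changed no other Hox call. The cause of these shifts was not tested. In HE, 6 of the 29 Hox means were under 1 CPM, where single reads move a log2 difference.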
